A study of Homo sapiens with 8 samples.

Results

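The miR-23, miR-24 and miR-27 families are made as 2 paralogous clusters of 3 hairpins each, and their guide strands are the 5 mature miRNAs described here: hsa-miR-23a-3p, hsa-miR-23b-3p, hsa-miR-24-3p, hsa-miR-27a-3p and hsa-miR-27b-3p, written without the species prefix from here on. They were chosen by name from the 1887 human miRNAs on the array, with no measured value in the rule. PC-3 cells, an established human prostate cancer line, were exposed for 24 h to the vehicle DMSO, to luteolin at 60 µM, to gefitinib at 60 µM, or to both of them together. Luteolin is a plant flavone, and gefitinib is an inhibitor of the EGFR tyrosine kinase. Each of the 4 groups has 2 arrays, given as biological replicates in the labels, and all 8 lay on 1 slide and were scanned together. Nothing in the sources used here says how the replicate cultures were kept apart, so that the spread between them may be partly technical. The cells are a single line, and its identity could not be checked on an array that carries only small RNAs.

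A miRNA guides Argonaute proteins to messenger RNAs, mainly through its seed, the bases near its 5′ end. Each hairpin gives a 5p and a 3p arm, and in these families the 3p arm is the one that usually accumulates. The members of a cluster are cut from a common primary transcript, while each mature miRNA is then trimmed, loaded and turned over on its own. The clusters are widely expressed in epithelial and stromal cells. MYC is known to repress the transcription of miR-23a and miR-23b, which target the mRNA of glutaminase, an enzyme of glutamine use.

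The sequences are shown because array probes must tell paralogues apart that are nearly identical. Capitals mark the seed, bases 2 to 8 from the 5′ end, and all sequences are those of RefSeq on GRCh38.p14, where all 5 members were found by name.
miR-23a-3p: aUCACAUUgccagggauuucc
miR-23b-3p: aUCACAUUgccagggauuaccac
miR-24-3p: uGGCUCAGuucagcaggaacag
miR-27a-3p: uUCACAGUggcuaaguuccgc
miR-27b-3p: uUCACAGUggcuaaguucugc

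The 5 members thus carry 3 seeds. Counted from the 5′ end, miR-23a-3p and miR-23b-3p differ by U19A over 21 compared positions, with 2 further bases at the 3′ end of miR-23b-3p. The miR-27 paralogues differ by C19U alone over their 21 bases. Neither difference lies in the seed, so the paralogues share their seed-matched targets.

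The genes MIR23A, MIR27A and MIR24-2 lie in that order of transcription within 373 bp on the minus strand of chromosome 19, at chr19:13836287-13836659, inside the host gene MIR23AHG. MIR23B, MIR27B and MIR24-1 lie within 881 bp on the plus strand of chromosome 9, at chr9:95085208-95086088, inside AOPEP. Both MIR24 genes give the same mature miR-24-3p, so its signal is the sum of both clusters and cannot be split between them. The other members each come from 1 gene.

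All 5 members were detected on all 8 arrays. Each is read by 2 probes of 15 spots, and all spots were well above background on every array with 0 saturated. The values below are the deposited total gene signals, an intensity summed over probes, after scaling of each array to its 75th percentile over the 365 miRNAs detected on all arrays. Before scaling that percentile ran from 60.5 to 92.7, and 395 to 481 miRNAs were detected per array. Levels are not compared between miRNAs, because probes differ in brightness.

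For the guide strands of the miR-23 seed, the differences between group means were smaller than those between the replicate arrays of DMSO and of luteolin. The scaled signal of miR-23a-3p was 1417 and 1978 with DMSO, 1373 and 2075 with luteolin, 1693 and 1744 with gefitinib, and 1557 and 1742 with both drugs. The group means were 1698 ± 397, 1724 ± 496, 1719 ± 35.9 and 1649 ± 131 in that order (SD, n = 2). Its lowest and its highest array were both luteolin arrays, so the luteolin pair spanned all other values.

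miR-23b-3p, the paralogue from chromosome 9, gave 65.0 and 83.5 with DMSO, 62.3 and 83.2 with luteolin, 71.4 and 68.5 with gefitinib, and 67.3 and 68.5 with both drugs. The means were 74.2 ± 13.1, 72.7 ± 14.8, 70.0 ± 2.10 and 67.9 ± 0.797 (SD, n = 2). Both arrays of gefitinib and both of the combination fell between the 2 DMSO arrays.

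The signal of miR-24-3p was 907 and 1132 with DMSO, 856 and 1007 with luteolin, 865 and 887 with gefitinib, and 859 and 888 with both drugs. The means were 1019 ± 159, 932 ± 107, 876 ± 15.3 and 874 ± 20.5 (SD, n = 2). The gefitinib and combination arrays lay below both DMSO arrays, while the luteolin arrays overlapped with them.

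The members with the miR-27 seed had, on this scaling, their highest group mean with DMSO and their lowest with both drugs. miR-27a-3p was 823 and 1123 with DMSO, 680 and 937 with luteolin, 809 and 826 with gefitinib, and 726 and 759 with both drugs. Its means were 973 ± 213, 808 ± 182, 817 ± 12.1 and 742 ± 23.1 (SD, n = 2). Only the combination arrays lay below both DMSO arrays.

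miR-27b-3p gave 77.9 and 108 with DMSO, 65.4 and 90.8 with luteolin, 78.3 and 76.6 with gefitinib, and 69.3 and 74.2 with both drugs. The means were 93.1 ± 21.5, 78.1 ± 18.0, 77.4 ± 1.18 and 71.8 ± 3.47 (SD, n = 2). The order of the linear group means was thus DMSO, luteolin, gefitinib and the combination for miR-27b-3p, with luteolin and gefitinib exchanged for miR-27a-3p. No neighbours in either order differed in the test given below. On the log2 scale of that test, gefitinib was above luteolin for both, by 0.007 for miR-27b-3p and 0.03 for miR-27a-3p. As for miR-27a-3p, the combination arrays of miR-27b-3p were below both DMSO arrays, and the single-drug groups overlapped with DMSO.

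**Figure D1:**
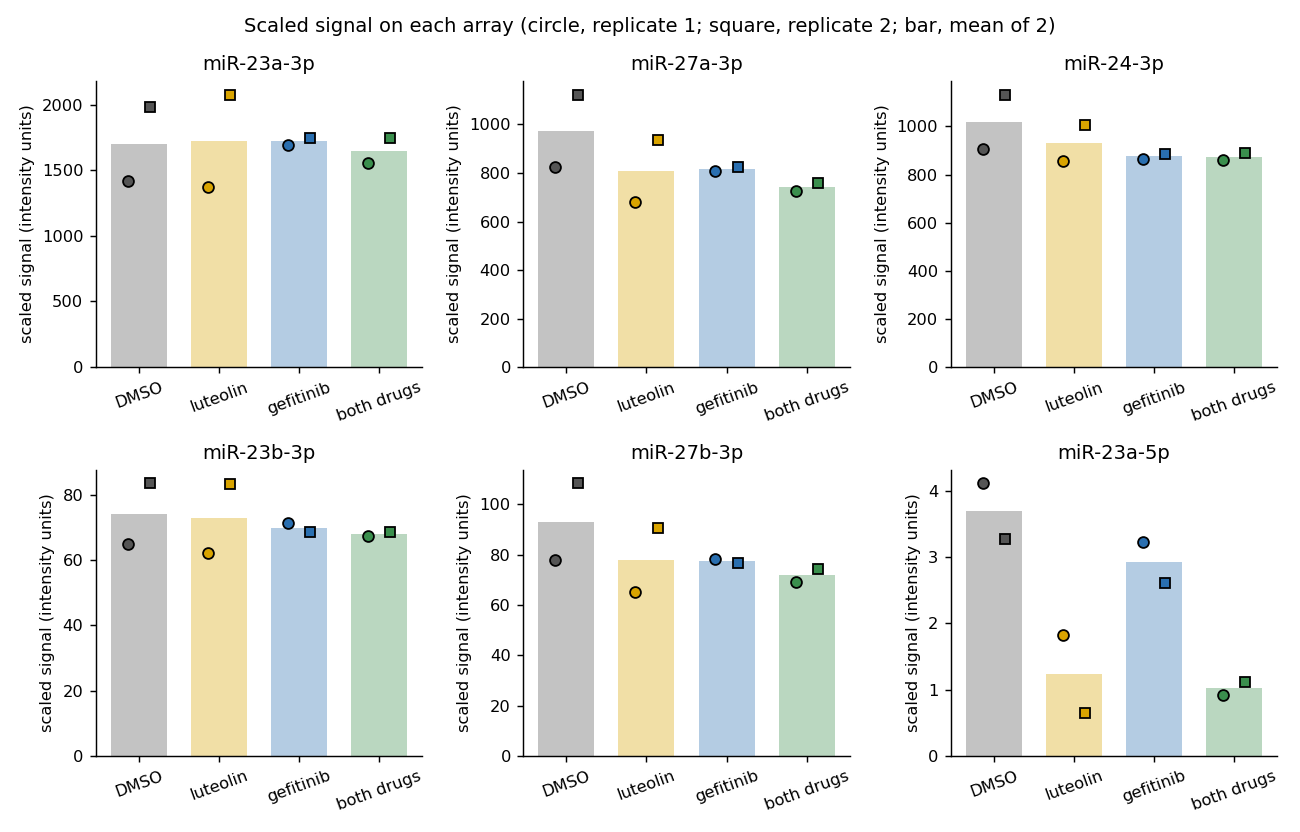
Scaled signal (linear intensity units, each panel with its own axis from 0) of the 5 guide strands and of miR-23a-5p, the opposite arm of the miR-23a hairpin, with 1 symbol per array and bars for the mean of the 2 replicates. For the 5 guide strands the DMSO and luteolin replicates stand further apart than those of the other groups, and for miR-23a-5p all 4 arrays with luteolin lie below the 4 without.

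Replicate 2 was above replicate 1 for all 5 members in 3 of the 4 groups, by 0.32 to 0.48 on the log2 scale with DMSO, by 0.23 to 0.60 with luteolin and by 0.02 to 0.16 with both drugs. Among the 365 miRNAs detected on all arrays, 56.7% were higher on replicate 2 with DMSO, 49.0% with luteolin and 63.6% with both drugs. In the gefitinib group the members differed by -0.06 to 0.04 between replicates. The gefitinib arrays were close for all miRNAs, with a median absolute difference of 0.10, against 0.32 with DMSO, 0.39 with luteolin and 0.19 with both drugs. Counted as 1 sample, they left 0 members called in every comparison (lowest limma adjusted p = 0.494). Luteolin replicate 1 was the lowest of the 8 arrays for all 5 members, and DMSO replicate 2 was the highest for all but miR-23a-3p. The SD of a member over the 8 arrays was 0.14 to 0.23 log2 units, against a median of 0.27 over the 365 miRNAs.

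No member passed the test in any comparison. The test was limma on log2 scaled signals, in 1 fit of the 4 groups over 480 miRNAs, those for which some group had both of its arrays detected, with a call at a Benjamini-Hochberg adjusted p under 0.05. Against DMSO, 0 of 5 members were called with luteolin, where 2.08% of all tested miRNAs were, 0 of 5 with gefitinib, where 12.1% were, and 0 of 5 with both drugs, where 12.1% were. The combination against luteolin gave 0 of 5 beside 1.88% of all, the combination against gefitinib 0 of 5 beside 4.58%, and gefitinib against luteolin 0 of 5 beside 5%. At an unadjusted p under 0.05 the count of members was also 0 in each of these comparisons. Of 930 values from other settings 5 had such a p, all of a miR-27 paralogue against DMSO, with limma adjusted p-values from 0.122 to 0.268. That threshold was passed by 8.54%, 23.8% and 25.8% of all tested miRNAs with luteolin, gefitinib and both drugs against DMSO. It was passed by 15.4% for the combination against luteolin, 12.5% for the combination against gefitinib and 16.7% for gefitinib against luteolin. The highest of the adjusted shares, 12.1%, would be less than 1 of 5 miRNAs, so the absence of calls among the members is close to the background.

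The largest differences from DMSO were those of the miR-27 paralogues with both drugs. The log2 difference of miR-27a-3p was -0.37 (SE 0.22, 95% interval -0.93 to 0.18, limma adjusted p = 0.385), and that of miR-27b-3p was -0.36 (SE 0.23, interval -0.94 to 0.22, limma adjusted p = 0.417). With luteolin alone they were -0.27 for miR-27a-3p (interval -0.83 to 0.29) and -0.25 for miR-27b-3p (interval -0.83 to 0.32). With gefitinib alone they were -0.23 for miR-27a-3p (interval -0.79 to 0.32) and -0.25 for miR-27b-3p (interval -0.83 to 0.33). On the linear scale the estimates for the combination are 0.77 and 0.78 times the DMSO level, and the intervals run from 0.524 to 1.14 and from 0.523 to 1.17.

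These estimates moved when a single array was left out. Without DMSO replicate 2, the brightest array for both miR-27 paralogues, the difference of miR-27a-3p from DMSO was -0.04 with luteolin, -0.009 with gefitinib and -0.15 with both drugs, and that of miR-27b-3p was -0.02, -0.009 and -0.12. Without DMSO replicate 1 they were -0.49, -0.46 and -0.60 for miR-27a-3p and -0.49, -0.48 and -0.60 for miR-27b-3p. The luteolin differences were -0.04 and -0.02 without luteolin replicate 1, and -0.50 and -0.49 without luteolin replicate 2. Replicate differences of DMSO and luteolin correlated at 0.908 over 365 miRNAs, so leaving out 1 array unbalances a shift that both groups share. Between arrays of the same number, luteolin was below DMSO for both miR-27 paralogues. For miR-27a-3p the signals were 680 against 823 and 937 against 1123. This also held for miR-23b-3p and miR-24-3p but not for miR-23a-3p, and the share of all miRNAs was not counted.

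Leaving out 1 array also moved the luteolin difference of miR-24-3p, to 0.03 without DMSO replicate 2 and to -0.29 without DMSO replicate 1. With all arrays the differences of miR-24-3p from DMSO were -0.13 with luteolin (interval -0.54 to 0.29), -0.21 with gefitinib (interval -0.62 to 0.20) and -0.21 with both drugs (interval -0.63 to 0.20). Those of miR-23a-3p were 0.01 (interval -0.63 to 0.66), 0.04 (interval -0.61 to 0.68) and -0.02 (interval -0.67 to 0.62) in the same order. For miR-23b-3p they were -0.03 (interval -0.53 to 0.47), -0.07 (interval -0.58 to 0.43) and -0.12 (interval -0.62 to 0.38). Every interval includes 0 and also differences of over 0.4 log2 units in at least 1 direction, so the arrays do not show that the levels were equal.

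The sign of several of these estimates depended on how the arrays were scaled. Over 5 other scalings, the difference of miR-27a-3p from DMSO ran from -0.17 to -0.05 with luteolin, from -0.13 to 0.26 with gefitinib and from -0.35 to 1.07 with both drugs, and the sign turned in 0, 4 and 2 of them. For miR-27b-3p the sign likewise turned in 0, 4 and 2, and for miR-24-3p in 2, 4 and 2. For miR-23b-3p it turned in 4, 4 and 3, and for miR-23a-3p, whose estimates were near 0, in 0, 0 and 5. The 1.07 comes from scaling to the 75th percentile over all 1887 miRNAs. That percentile falls at the edge of detection, since 395 to 481 miRNAs were detected per array and the rest are set to 0.1. Values under that scaling therefore say little about the members. The median over all tested miRNAs moved with the scaling as well, for both drugs from -0.16 as reported to 1.20 with the 75th percentile over all miRNAs and 0.24 with small-RNA controls.

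Taken relative to that median, both miR-27 paralogues were below it in all 3 comparisons with DMSO, as reported and under the 5 other scalings. Apart from quantile normalization, these differ from the reported scaling by a factor per array, which moves members and median nearly alike. Their results were thus largely fixed in advance and are no separate check. Under quantile normalization miR-27a-3p minus the median was -0.15, -0.05 and -0.001 with luteolin, gefitinib and both drugs. For miR-27b-3p it was -0.22, -0.15 and -0.30. The difference of miR-27a-3p minus the median was -0.16, -0.13 and -0.21 with luteolin, gefitinib and both drugs, and over the other scalings it ran from -0.17 to -0.14, from -0.12 to -0.05 and from -0.21 to -0.001. For miR-27b-3p it was -0.15, -0.14 and -0.20, and ran from -0.22 to -0.13, from -0.15 to -0.13 and from -0.30 to -0.11. miR-23a-3p was above the median throughout, by 0.11 to 0.37, and no test was made of these values.

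The median difference of the 5 members was -0.13 with luteolin, -0.21 with gefitinib and -0.21 with both drugs, beside -0.10, -0.10 and -0.16 over all 480 tested miRNAs. Taken without regard to replicate number, both arrays were below both DMSO arrays for 0 of the 5 members with luteolin, where 16.2% of the 365 miRNAs detected on all arrays were. With gefitinib this held for 1 member, miR-24-3p, beside 38.1% of all, and with both drugs for 3 members, miR-24-3p and the miR-27 paralogues, beside 31.8%. The combination arrays were below both luteolin arrays for 0 members, beside 18.1%, and below both gefitinib arrays for 3, miR-23b-3p and the miR-27 paralogues, beside 29%. An exact permutation test of 2 against 2 arrays cannot give a p below 0.333, so no such test was made for single values.

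The drugs were also set against each other at their equal doses and time. Gefitinib minus luteolin ranged from -0.08 for miR-24-3p to 0.03 for miR-27a-3p, with intervals that all lie within -0.62 and 0.67. The combination minus luteolin ranged from -0.10 for miR-27a-3p to -0.04 for miR-23a-3p, and the combination minus gefitinib from -0.14 for miR-27a-3p to -0.004 for miR-24-3p. All 5 estimates were below 0 in both of these comparisons, which share the combination arrays, and so were the medians over all tested miRNAs, at -0.05 and -0.06. The members' medians were -0.09 and -0.06, and under scaling to small-RNA controls all 5 differences of the combination from luteolin were above 0, from 0.21 to 0.28, as was the median over all tested miRNAs, at 0.24. The lowest limma adjusted p of a member in these 3 comparisons was 0.911. The interaction, the effect of both drugs minus the sum of the single effects on the log2 scale, ran from -0.07 for miR-23a-3p to 0.14 for miR-27b-3p, and 0 of 5 members were called beside 3.33% of all tested miRNAs (lowest limma adjusted p = 0.986). Before adjustment 0 members passed, beside 10.2% of all.

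**Figure D2:**
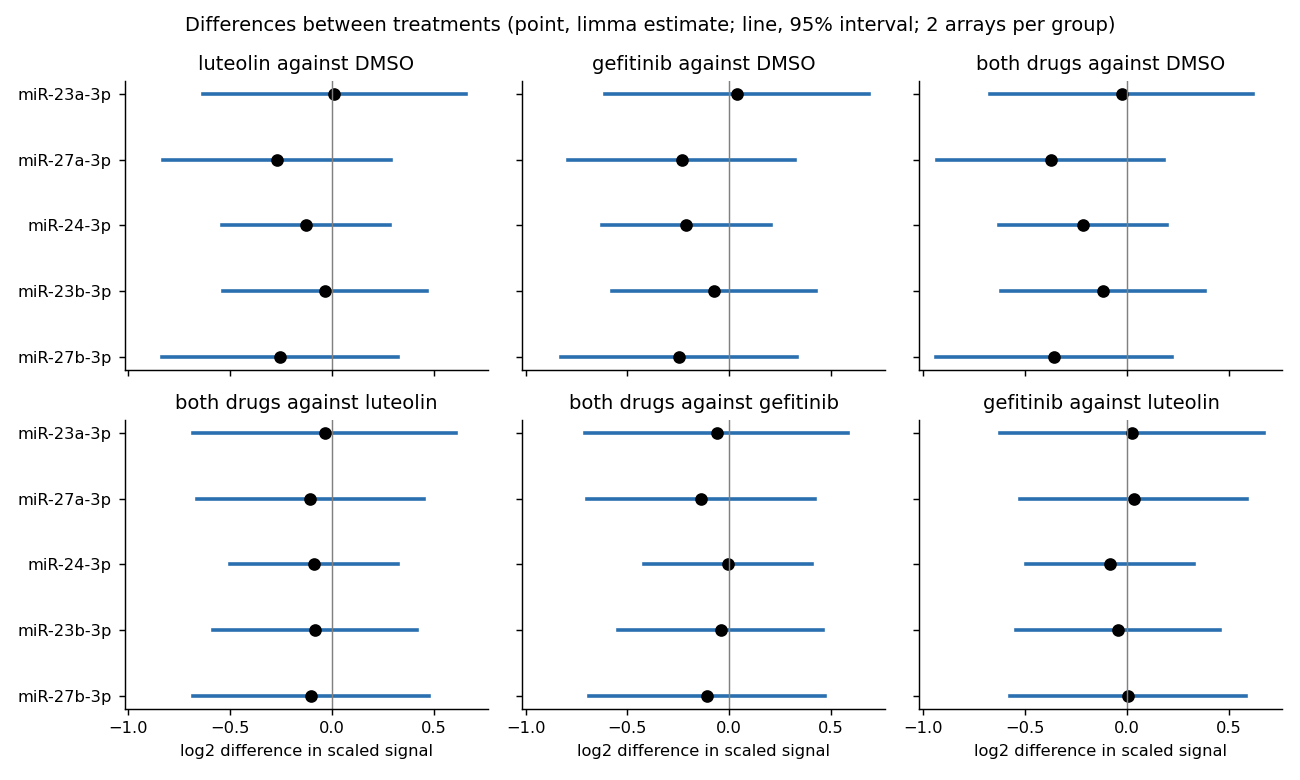
Log2 differences in scaled signal between treatments (x axis) for the 5 guide strands (y axis), with points for the limma estimates and lines for their 95% intervals, from 2 arrays per group. Every line crosses 0, and the points farthest from it are those of miR-27a-3p and miR-27b-3p for both drugs against DMSO, at -0.37 and -0.36, estimates whose sign turned under 2 of 5 other scalings that also raised the median of all tested miRNAs above 0.

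Much of the spread between replicates was common to the members and cancels in a ratio of 2 miRNAs on the same array. These ratios were taken after the values had been seen, are set to a DMSO mean of 0 on the log2 scale, and are given as a description with no test. Only their change between arrays is used, never the ratio of the levels themselves. For miR-27a-3p over miR-23a-3p, cluster mates on chromosome 19, the DMSO arrays were at 0.02 and -0.02, the luteolin arrays at -0.21 and -0.35, the gefitinib arrays at -0.27 and -0.28, and the combination arrays at -0.30 and -0.40. All 6 drug arrays were thus below both DMSO arrays, and the group means were -0.28, -0.27 and -0.35.

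The chromosome 9 mates, miR-27b-3p over miR-23b-3p, gave -0.06 and 0.06 with DMSO, -0.25 and -0.19 with luteolin, -0.19 and -0.16 with gefitinib, and -0.28 and -0.20 with both drugs. Again all 6 drug arrays were below both DMSO arrays, with group means of -0.22, -0.17 and -0.24. The gefitinib mean was -0.086 under quantile normalization, and those of luteolin and gefitinib were both -0.11 under normexp background correction. For the chromosome 19 mates the gefitinib mean was -0.43 and -0.51 under the same settings.

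Of the 10 ratios that the 5 members allow, DMSO stood apart from all drug arrays in 4, which are the 4 ratios of a miR-27 over a miR-23 guide strand. Among all 66430 pairs of miRNAs detected on all arrays, 17.2% were apart in this way in either direction. The 4 ratios are not separate observations, since they combine the same 4 miRNAs, and all of them use the same 2 DMSO arrays. The ratios of miR-24-3p overlapped between DMSO and the drugs: over miR-23a-3p its DMSO arrays were at 0.08 and -0.08, and its drug arrays ran from -0.32 to 0.04.

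**Figure D3:**
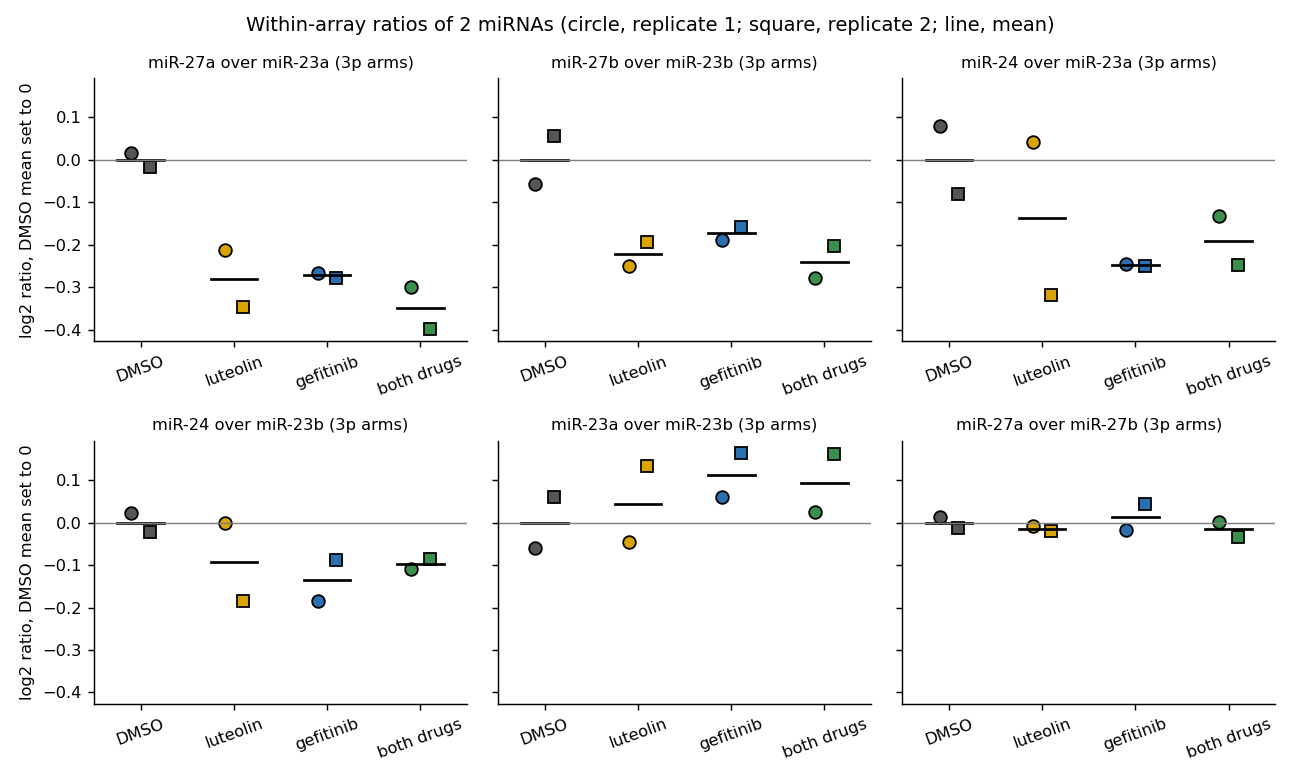
Log2 ratio of 2 miRNAs on the same array, with the mean of the DMSO arrays set to 0 (y axis), for cluster mates and paralogues by treatment (x axis); symbols are arrays and lines are group means. The ratios of miR-27 over its cluster mate miR-23 lie between -0.40 and -0.16 on all 6 drug arrays, while that of miR-27a over miR-27b stays within -0.03 and 0.04 on all 8 arrays.

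The miR-27 paralogues, which come from different chromosomes, had nearly the same profile. The log2 ratio of miR-27a-3p over miR-27b-3p had an SD of 0.024 over the 8 arrays, and 0.0015% of all 66430 pairs had a smaller one. The corresponding SD for the miR-23 paralogues was 0.087, and 0.727% of all pairs had a smaller one. The median over all pairs was 0.44. Since the miR-27 paralogues differ by a single base, signal of the one on the probes of the other would also bring their profiles together. Cross-hybridisation was not tested.

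Cluster mates were less alike than the miR-27 paralogues, though not all of them less than the miR-23 paralogues. Their ratios had SDs of 0.15 for miR-27a-3p over miR-23a-3p, 0.11 for miR-27b-3p over miR-23b-3p, 0.15 for miR-24-3p over miR-23a-3p and 0.078 for miR-24-3p over miR-23b-3p. The SDs were 0.10 for miR-24-3p over miR-27a-3p and over miR-27b-3p. Over all pairs, 4.69% had a smaller SD than miR-27a-3p over miR-23a-3p, the least alike pair among the members.

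The miRNAs outside the 5 with the most similar profiles were named by the root mean square difference of log2 signals centred over the 8 arrays. For miR-23a-3p they were miR-28-5p at 0.036, let-7i-5p at 0.053 and miR-21-5p at 0.055. For miR-23b-3p they were miR-365a-3p at 0.037, miR-10a-5p at 0.039 and miR-25-3p at 0.046, and for miR-24-3p they were miR-101-3p at 0.034, miR-324-5p at 0.043 and miR-25-3p at 0.050. These values are smaller than those between any of these 3 members and the rest of the 5, of which the smallest was 0.073, between miR-23b-3p and miR-24-3p.

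The miR-27 paralogues were nearest to each other, at 0.022. Outside the 5, miR-27a-3p was nearest to miR-140-5p at 0.073, miR-31-3p at 0.073 and miR-125a-5p at 0.077, and miR-27b-3p to miR-331-3p at 0.071, miR-31-3p at 0.072 and miR-140-5p at 0.074. The medians over all other miRNAs were between 0.26 and 0.32. All these likenesses rest on the same 8 arrays and take in the replicate differences given above.

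Each probe was next taken alone, from the mean processed signal of its spots, to see how far a member's difference depended on 1 probe. The signs of the 2 probes matched in 32 of 35 member comparisons, and the gap between them was at most 0.22 log2 units. That widest gap belonged to miR-27a-3p with gefitinib, where the probes gave -0.48 and -0.26 against DMSO. For miR-27a-3p with both drugs they gave -0.55 and -0.34, and for miR-27b-3p -0.49 and -0.36. The lowest limma adjusted p of any single probe was 0.122, for the lower of the miR-27a-3p probes with both drugs. The probe values were scaled to a percentile of their own, and both probes could move together from the reported estimate. Of 70 probe values, 15 had the other sign. With gefitinib both probes of miR-23a-3p gave -0.07 against DMSO, where 0.04 was reported. For gefitinib minus luteolin every probe value was below 0, from -0.27 to -0.09, while the reported estimates ran from -0.08 to 0.03.

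For miR-24-3p with both drugs the probes gave -0.26 and -0.25, and for miR-23a-3p -0.07 and -0.06. For the combination minus gefitinib both probes of miR-23b-3p (0.02 and 0.04) and of miR-24-3p (0.05 and 0.08) were above 0. The reported estimates of these miRNAs were below 0 there. The ratio of miR-27a-3p over miR-23a-3p kept all drug arrays below both DMSO arrays in 4 of 4 combinations of probes, and that of miR-27b-3p over miR-23b-3p in 3 of 4.

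**Figure D4:**
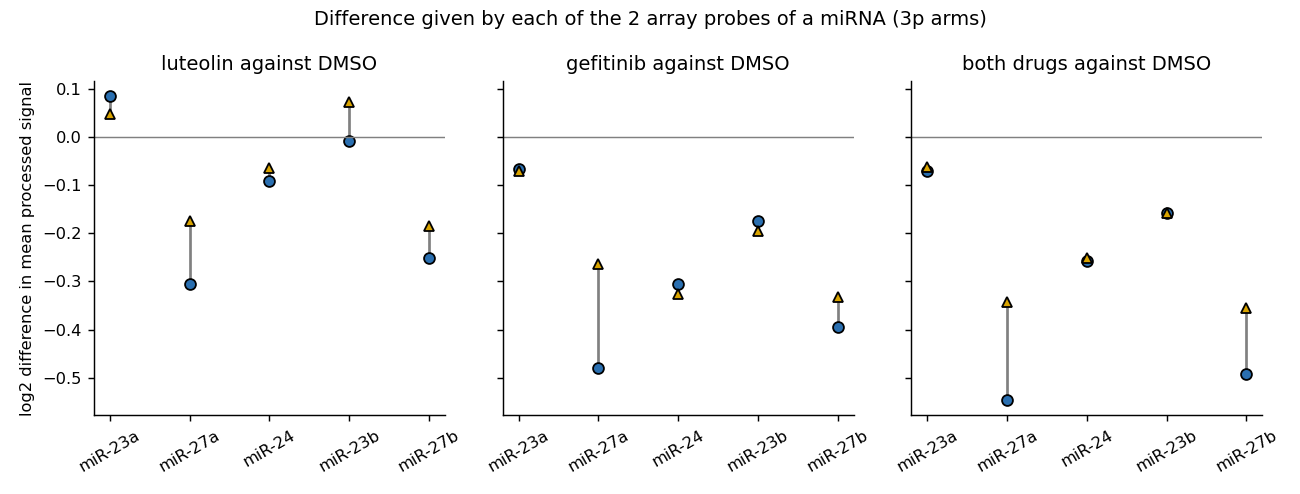
Log2 difference from DMSO in mean processed signal (y axis) given by each of the 2 array probes of a guide strand (x axis), 1 panel per treatment; circles and triangles are the probes and grey lines join them. The miR-27a-3p probes are farthest apart, at -0.48 and -0.26 with gefitinib, and both lie below 0 in all 3 panels.

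The opposite arms of the same hairpins are usually discarded during Argonaute loading. Of the 6 opposite arms on the array, 5 were detected on no array: miR-23b-5p, miR-27a-5p, miR-27b-5p, miR-24-1-5p and miR-24-2-5p. The exception was miR-23a-5p, the other arm of the MIR23A hairpin, which was detected on all 8 arrays but dimly. Its seed, in capitals, is unrelated to those of the guide strands.
miR-23a-5p: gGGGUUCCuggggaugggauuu

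The scaled signal of miR-23a-5p was 4.11 and 3.27 with DMSO, 1.82 and 0.643 with luteolin, 3.23 and 2.61 with gefitinib, and 0.925 and 1.12 with both drugs. The means were 3.69 ± 0.599, 1.23 ± 0.835, 2.92 ± 0.436 and 1.02 ± 0.139 (SD, n = 2). All 4 arrays with luteolin, alone or combined, were below all 4 without it, as were those of 2.5% of the 480 tested miRNAs. These values are close to the floor of 0.609 set for undetected miRNAs, and of the 4 probes of miR-23a-5p none had spots well above background on every array.

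The log2 difference of miR-23a-5p from DMSO was -1.76 with luteolin (SE 0.49, interval -2.97 to -0.55, limma adjusted p = 0.275) and -1.85 with both drugs (SE 0.49, interval -3.06 to -0.64, limma adjusted p = 0.0697). It was -0.34 with gefitinib (interval -1.55 to 0.88), and the combination minus gefitinib was -1.51 (interval -2.72 to -0.30, limma adjusted p = 0.267). Gefitinib minus luteolin was 1.42 (interval 0.21 to 2.64, limma adjusted p = 0.223). Before adjustment the limma p-values were 0.0125, 0.0102, 0.519, 0.0228 and 0.0286, so 4 of these 5 differences passed 0.05 only unadjusted. The combination against DMSO was called under 7 of 25 other settings, with differences from -2.01 to -0.07 and limma adjusted p-values from 0.00737 to 0.833 over all 25. Luteolin against DMSO was called under 1 of 25, with differences from -2.51 to -0.07 and limma adjusted p-values from 0.0156 to 1. The combination against gefitinib was called under 3 of 25 and gefitinib against luteolin under 1 of 25. The ends of these ranges near 0 come from a background correction that adds an offset of 50, far above this signal, and so compresses its differences. The 7 settings that called the combination against DMSO are not separate. Mean processed signals and the series table hold the same spot values and both gave -1.395. Leaving out either luteolin array kept the difference at -1.85 and changed only the shared estimate of the spread. Without luteolin replicate 2 the difference of luteolin from DMSO was -1.01, and without luteolin replicate 1 it was -2.51. The guide strand of the same hairpin, miR-23a-3p, gave 0.01 with luteolin and -0.02 with both drugs, and the difference between the arms was not tested.

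Of the miRNAs with related seeds only miR-128 was tested, and it was not called. miR-23c, which has the miR-23 seed and differs from miR-23b-3p by G14U and A22C, was detected on no array, although its 22 bases share 20 with miR-23b-3p. miR-128, the name on the array for miR-128-3p, has the miR-27 core CACAGU shifted by 1 base.
miR-128: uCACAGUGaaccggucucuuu

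The signal of miR-128 was 32.9 and 43.4 with DMSO, 30.8 and 42.2 with luteolin, 31.0 and 33.1 with gefitinib, and 31.8 and 34.2 with both drugs. Its log2 differences from DMSO were -0.07, -0.24 and -0.20, and its lowest limma adjusted p against DMSO was 0.610. miR-3074-5p and miR-3074-3p, which come from the strand opposite MIR24-1, were detected on no array.

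Other miRNAs known to be repressed by MYC, among them let-7, miR-15, miR-26, miR-29 and miR-30 family members and miR-34a-5p, served as a wider list. Of 22 listed, 21 were tested, and 0 were called higher or lower in any of the 7 comparisons, and 0 had an unadjusted limma p under 0.05. Over all tested miRNAs 2.08%, 12.1% and 12.1% were called, and 8.54%, 23.8% and 25.8% passed unadjusted, with luteolin, gefitinib and both drugs against DMSO. The list's median log2 differences from DMSO were -0.01 with luteolin, -0.001 with gefitinib and -0.08 with both drugs, beside -0.10, -0.10 and -0.16 for all tested miRNAs.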

How the data were processed

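PC-3 RNA was labelled with Cy3 and hybridised to 1-colour Agilent human miRNA arrays with 30 spots per miRNA. The authors deposited Feature Extraction 10.7.3.1 scanner output, whose total gene signal is a background-subtracted linear intensity, set to 0.1 for undetected miRNAs. Here each array was divided by its 75th percentile over the 365 miRNAs detected on all 8 arrays, floored at 0.609 and log2-transformed. limma 3.58.1 in R 4.3.3 fitted the 4 groups together over 480 miRNAs, with 4 residual and 1.66 prior degrees of freedom. The 2 arrays per group limit the precision. The study's methods name a t-test on ratios to DMSO, used here as an alternative. The script was tested on simulated data. The members and lists were chosen with earlier results of these data known. The text names the 5 members, opposite arms, seed relatives, miR-3074, any called miRNAs of the MYC list, whose families are otherwise listed without values, and the 3 nearest profiles of each member. Sequences and positions are from RefSeq on GRCh38.p14; the array's header names hg19, and probe sequences were not used here. The deposited series table of processed spot signals matched the scanner output for 100% of spots within 0.5% and served as an alternative. Other alternatives changed scaling, background correction, probe summary, filter, floor and samples.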

Additional observations from a re-analysis of the deposited data

How the results depend on the processing

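The count of called members was 0 in all 7 comparisons under every alternative run, and the lowest limma adjusted p of a member was 0.122, for a single miR-27a-3p probe with both drugs. Of 930 alternative values, 0 were called, 140 had the other sign and 128 moved by more than the replicate SD. Signs changed most often where the scaling differed by 1 factor per array, which moves all miRNAs on it alike. Of 35 values, 24 changed sign with the 75th percentile over all miRNAs, 20 with small-RNA controls, 13 with spike-ins and 12 without scaling. Quantile normalization changed 7. The percentile over all miRNAs lies at the edge of detection. For gefitinib against DMSO the median of all tested miRNAs was -0.10 as reported, 0.26 without scaling and 0.38 with spike-ins, and for both drugs it was 1.20 with the percentile over all miRNAs. Replicate differences correlated over 365 miRNAs at 0.908 between DMSO and luteolin, 0.461 between luteolin and the combination and 0.409 between DMSO and the combination, but at -0.135, -0.093 and 0.065 between gefitinib and these groups in the order DMSO, luteolin, combination, so the numbers were not taken to pair the arrays in all groups. With the replicate number as a block, 0 members were called, beside 9, 58 and 62 of all 480 miRNAs with luteolin, gefitinib and both drugs against DMSO, and the lowest limma adjusted p was 0.217. With the block and only the groups compared, added after seeing the data, 0 were called, but for luteolin against DMSO miR-27a-3p (-0.27) and miR-27b-3p (-0.25), lower than DMSO within both numbers, had unadjusted limma p-values of 0.0337 and 0.0370 (adjusted p = 0.268 each), beside 16.5% of all 480 tested miRNAs under 0.05 and 0 called in that fit. Unadjusted limma p-values of miR-27a-3p were 0.0418 with gefitinib under normexp (26% of all under 0.05), and 0.0460 with gefitinib and 0.0297 with both drugs for 1 of its probes alone. The within-array ratios, also added after seeing the data, kept their sign. For miR-27a-3p over miR-23a-3p they were -0.21 with luteolin and -0.51 with gefitinib under normexp, -0.43 with gefitinib under quantile normalization, and -0.42 with both drugs from mean processed signals or the series table. For miR-27b-3p over miR-23b-3p they were -0.11 with luteolin, -0.11 with gefitinib and -0.16 with both drugs under normexp, and -0.086 with gefitinib under quantile normalization. The causes were not tested. Leaving out single arrays gave -0.35 to -0.21, -0.29 to -0.26 and -0.40 to -0.30 for the first ratio and -0.28 to -0.16, -0.23 to -0.12 and -0.30 to -0.18 for the second, with luteolin, gefitinib and both drugs. For miR-23a-5p, the difference of both drugs from DMSO was called when either luteolin array was left out (limma adjusted p = 0.00737 each), and that of luteolin when replicate 1 was (-2.51, limma adjusted p = 0.0156) but not when replicate 2 was (-1.01, limma adjusted p = 0.197). Under normexp with its offset of 50, far above this signal, both differences were -0.07.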
